A study of Mus musculus with 6 samples.

Results

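The genes described here are 31 genes of homologous recombination, the Fanconi anaemia pathway and mismatch repair, chosen by symbol from a list of members of these pathways. Each symbol matched 1 of the 21899 genes in the deposited table, and all 31 passed the filter on low counts that left 12135 genes for testing. Messenger RNA was sequenced from C2C12, a mouse myoblast line grown from 1 clone, able to form myotubes, with the genotype given as wild type and the cells named as myocytes. The 3 libraries of cells exposed to 5-fluorouracil (5-FU) at 5 µg per L over 24 hours are compared with 3 PBS libraries (phosphate-buffered saline), for which the sample labels state no time. The submitters call the 5-FU dose metronomic, and by their titles all 6 libraries come from 1 line in culture with no other agent or allele named. The cell line entries of 5-FU replicates 2 and 3 differ from C2C12 in the last digit, and their titles, which name C2C12, were followed.

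Homologous recombination repairs a broken chromosome from its sister: the MRE11, RAD50 and NBN complex and its helpers trim the break to single strands, BRCA1 with BARD1 and PALB2 brings in BRCA2, and BRCA2 and the BCDX2 and CX3 complexes prepare the strands for the search for the sister. The Fanconi core complex is a ubiquitin ligase that marks FANCD2 and FANCI at blocked replication forks, and mismatch repair removes mispaired bases and small loops. 5-FU puts uracil and fluorouracil into DNA by starving cells of thymidine nucleotides, and both mismatch repair and recombination are known to act on the damage that follows. Many genes of recombination are also known targets of the E2F factors, which switch on genes for S phase.

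E2F letters were therefore looked for in the promoter windows of these genes (250 bases before to 50 after the start; RefSeq, build GRCm38.p6), with the spellings TTTCGCGC, TTTGGCGC, TTTCCCGC and TTTGCCGC on both strands. Of the 31 genes 23 had a window, and 6 of these (26.1%) held at least 1 of the spellings, against 2.60% of the 27025 genes in the whole promoter table. The 6 were Bard1, Brca2, Rad51c, Fancg, Msh3 and Msh6. The letters CCAAT, the core of the CCAAT box, stood on either strand in 16 of the 23 windows (69.6%), against 41.1% of all genes. The letters TTTGAA, one form of the cell cycle CHR element, stood in 2 of the 23 windows (8.70%), against 20.2% of all genes. A match is a description of letters and was not tested as a binding site. Of the 7 genes that come up again for an unadjusted p under 0.05, only 3 had a window. Rad51d, Xrcc2, Rad54b and Fancd2 had none and could not be searched. The 3 windows are printed below, with the E2F letters, read on either strand, in capitals. The 2 matches of Msh3 overlap and lie on opposite strands.
Brca2 (chr5:150522371-150522670, plus strand): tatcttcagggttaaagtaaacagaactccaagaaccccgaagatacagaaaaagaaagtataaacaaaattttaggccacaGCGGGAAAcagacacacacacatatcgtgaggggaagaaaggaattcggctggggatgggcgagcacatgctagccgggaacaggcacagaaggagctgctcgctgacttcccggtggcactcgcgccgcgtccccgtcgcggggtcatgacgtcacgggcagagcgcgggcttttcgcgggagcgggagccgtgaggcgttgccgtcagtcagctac
Fancg (chr4:43010252-43010551, minus strand): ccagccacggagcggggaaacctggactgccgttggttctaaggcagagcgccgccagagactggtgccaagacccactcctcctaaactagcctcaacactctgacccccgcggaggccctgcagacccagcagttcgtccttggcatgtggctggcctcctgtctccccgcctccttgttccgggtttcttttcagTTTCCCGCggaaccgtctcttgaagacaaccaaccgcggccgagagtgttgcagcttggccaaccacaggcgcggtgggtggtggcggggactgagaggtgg
Msh3 (chr13:92354954-92355253, minus strand): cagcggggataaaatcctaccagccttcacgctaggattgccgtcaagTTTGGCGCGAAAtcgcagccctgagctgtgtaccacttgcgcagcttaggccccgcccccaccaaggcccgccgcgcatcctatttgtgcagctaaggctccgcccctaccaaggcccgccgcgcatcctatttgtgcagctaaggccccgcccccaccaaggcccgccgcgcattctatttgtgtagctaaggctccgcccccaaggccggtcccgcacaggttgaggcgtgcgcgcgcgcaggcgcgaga

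The libraries held between 19583312 and 23016735 estimated counts, and a repair gene had between 41 and 1040 counts in a library. On levels scaled by transcript length (TPM), all 9 myoblast markers and all 13 myotube markers listed, such as Myod1 and Myog, averaged at least 1 TPM, and Epcam and Alb, of epithelium and liver, were listed at 0. The summed level of the 9 myoblast markers was 4130 to 4670 TPM in 5-FU libraries and 3750 to 3840 TPM in PBS libraries. That of the 13 myotube markers was 1770 to 3070 TPM in 5-FU libraries and 1820 to 2180 TPM in PBS libraries. Other cell types gave 5 of 19 markers at a mean of at least 1 TPM, with sums of 190 to 204 TPM in 5-FU libraries and 181 to 189 TPM in PBS libraries, most of it from the tubulin gene Tubb3 (166 TPM in 5-FU libraries and 158 TPM in PBS libraries on average). The part of these shifts in the results below was not tested. Whether the replicates came from separate cultures is not stated in the labels. The p-values therefore cover only the spread among the 6 libraries, and that spread may be technical.

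**Figure D1:**
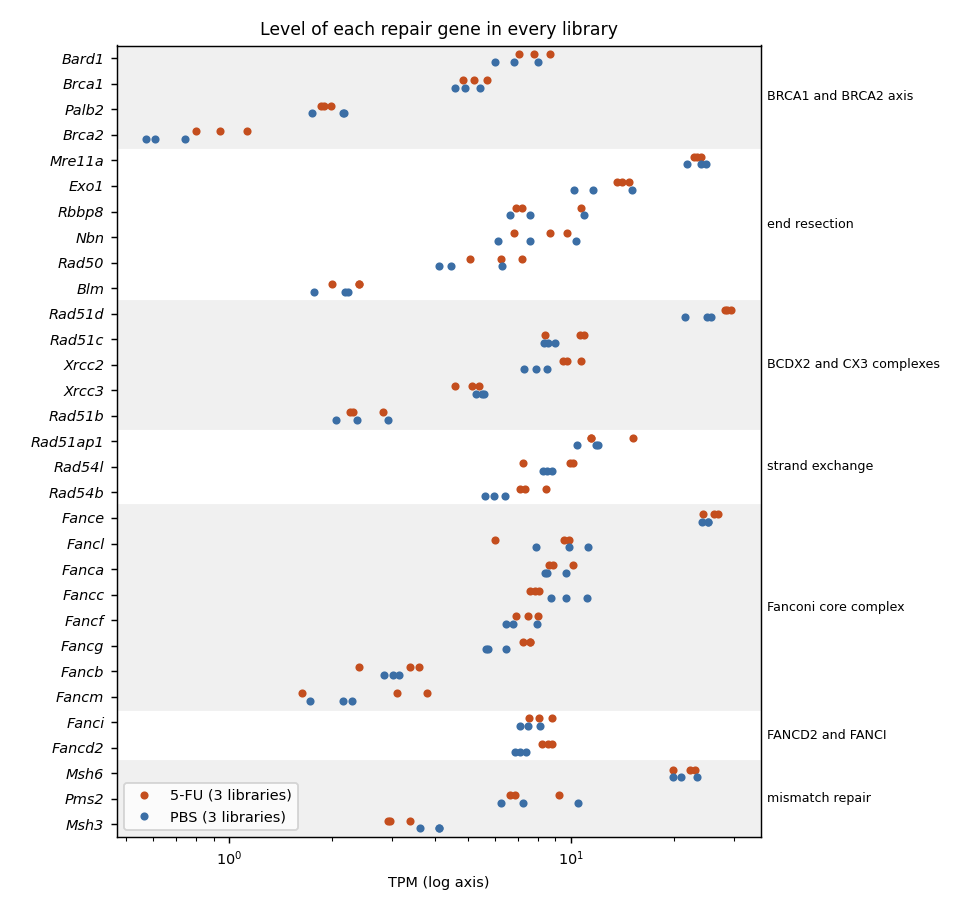
Level of each of the 31 repair genes in TPM (log axis) in the 3 5-FU libraries and the 3 PBS libraries, 1 point per library, grouped by role. Rad51d, Fance, Mre11a and Msh6 lie at 19.9 TPM or more in every library, and Brca2 lies lowest.

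All 31 genes were detected in every library, at levels that spanned more than an order of magnitude. The highest were the BCDX2 complex gene Rad51d (28.7 ± 0.64 TPM in 5-FU libraries and 24.1 ± 2.2 TPM in PBS libraries; SD, n = 3), the Fanconi core gene Fance (25.8 ± 1.3 TPM in 5-FU libraries and 24.8 ± 0.56 TPM in PBS libraries), the nuclease gene Mre11a (23.4 ± 0.54 TPM in 5-FU libraries and 23.6 ± 1.5 TPM in PBS libraries) and the mismatch sensor gene Msh6 (21.7 ± 1.6 TPM in 5-FU libraries and 21.4 ± 1.8 TPM in PBS libraries). In the PBS libraries the ranges of Rad51d, Fance, Mre11a and Msh6 each overlapped that of the next in order of mean. In the 5-FU libraries Rad51d lay wholly above Fance and Fance wholly above Mre11a, while Mre11a and Msh6 overlapped. Brca2, whose protein acts at the break after resection, was lowest, at 0.955 ± 0.16 TPM in 5-FU libraries and 0.64 ± 0.091 TPM in PBS libraries. Its partner gene Palb2, the helicase gene Blm, the BCDX2 gene Rad51b and the translocase gene Fancm came next, all with means between 1.91 and 2.84 TPM in both groups. Within complexes the levels were unequal: in the MRE11 complex, Nbn averaged 8.40 ± 1.5 TPM in 5-FU libraries and 8.0 ± 2.1 TPM in PBS libraries, and Rad50 averaged 6.16 ± 1.1 TPM in 5-FU libraries and 4.96 ± 1.2 TPM in PBS libraries, both well below Mre11a.

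Between 5-FU and PBS, none of the 31 genes passed the threshold. By edgeR's quasi-likelihood F test 0 of them were called at an adjusted p (Benjamini-Hochberg, all genes) under 0.05, where it called 7.14% of all genes tested (3.87% higher and 3.26% lower). That background rests on 866 calls, which were 249 without PBS replicate 2 and 475 to 499 without 5-FU replicate 2 or 3 or PBS replicate 1 or 3, with 0 of the 31 genes called each time. DESeq2 also called 0, against 7.82% of all genes it adjusted, as did limma-voom, against 6.89% of all genes. At an unadjusted p under 0.05 there were 7 of 31 (22.6%), against 23.8% of all genes, of which 6 were higher (12.7% of all genes) and 1 was lower (11.1% of all genes). At an adjusted p under 0.10 there were 5 of 31 (16.1%), against 13.2% of all genes. The 3 libraries of one group lay wholly above or below those of the other in 8 of 31 (25.8%), against 29.3% of all genes. The shares at the unadjusted threshold, at 0.10 and without overlap thus lay near the background.

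**Figure D2:**
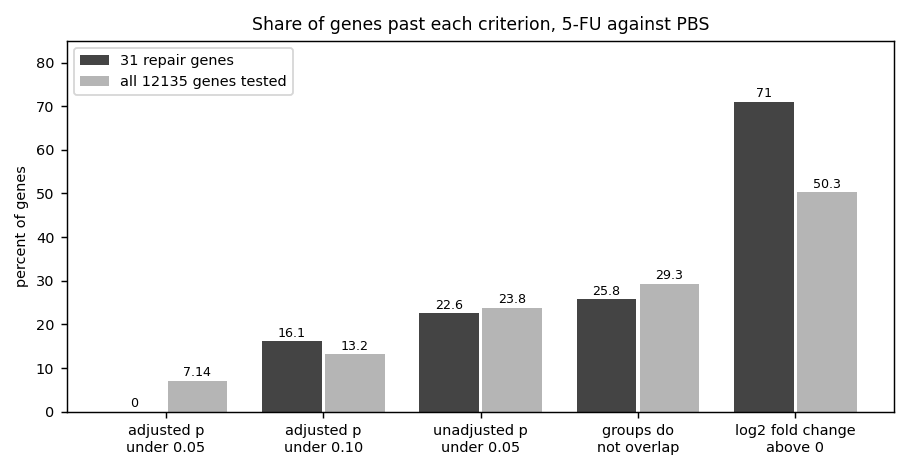
Percent of the 31 repair genes (dark bars) and of all genes tested (light bars) that pass each criterion in the comparison of 5-FU with PBS by edgeR. The repair genes stand at 0 against 7.14 for an adjusted p under 0.05 (a background of 866 calls, 249 without PBS replicate 2) and at 22.6 against 23.8 for an unadjusted p under 0.05, while 71.0 against 50.3 have a log2 fold change above 0.

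More values were above 0 than below, and this count was not tested. Of the 31 log2 fold changes (5-FU over PBS) 22 were above 0 (71.0%), against 50.3% of all genes, and their median was 0.068, against 0.0012 over all genes tested. The median was 0.022 without 5-FU replicate 3 and 0.126 without 5-FU replicate 2. Among other genes of the same pathways, 17 of 41 were above 0 in homologous recombination (41.5%), 9 of 20 in the Fanconi pathway (45%) and 7 of 15 in mismatch repair (46.7%), with medians of -0.009, -0.019 and -0.004. The median log2 ratio of the 31 genes to their PBS mean was 0.084, -0.00049 and 0.14 in 5-FU replicates 1, 2 and 3, against -0.013, -0.053 and 0.015 in PBS replicates 1, 2 and 3. 5-FU replicate 2 thus lay inside the PBS range. The summed CPM (counts scaled to the size of each library) of the 31 genes was 421, 411 and 443 in 5-FU replicates 1, 2 and 3, against 412, 388 and 418 in PBS replicates 1, 2 and 3, and the groups overlapped. In bulk RNA, fewer cells that express a gene and less RNA per cell cannot be told apart.

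The intervals give the size of difference that the spread among these 6 libraries allows, and that spread may be technical. Each interval is for 1 gene, with no adjustment for the number of genes. The 95% interval of the fold lay within 2-fold either way for all 31 genes and within 1.5-fold for 27 of them. Standard errors of the log2 fold changes ran between 0.053 and 0.20.

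**Figure D3:**
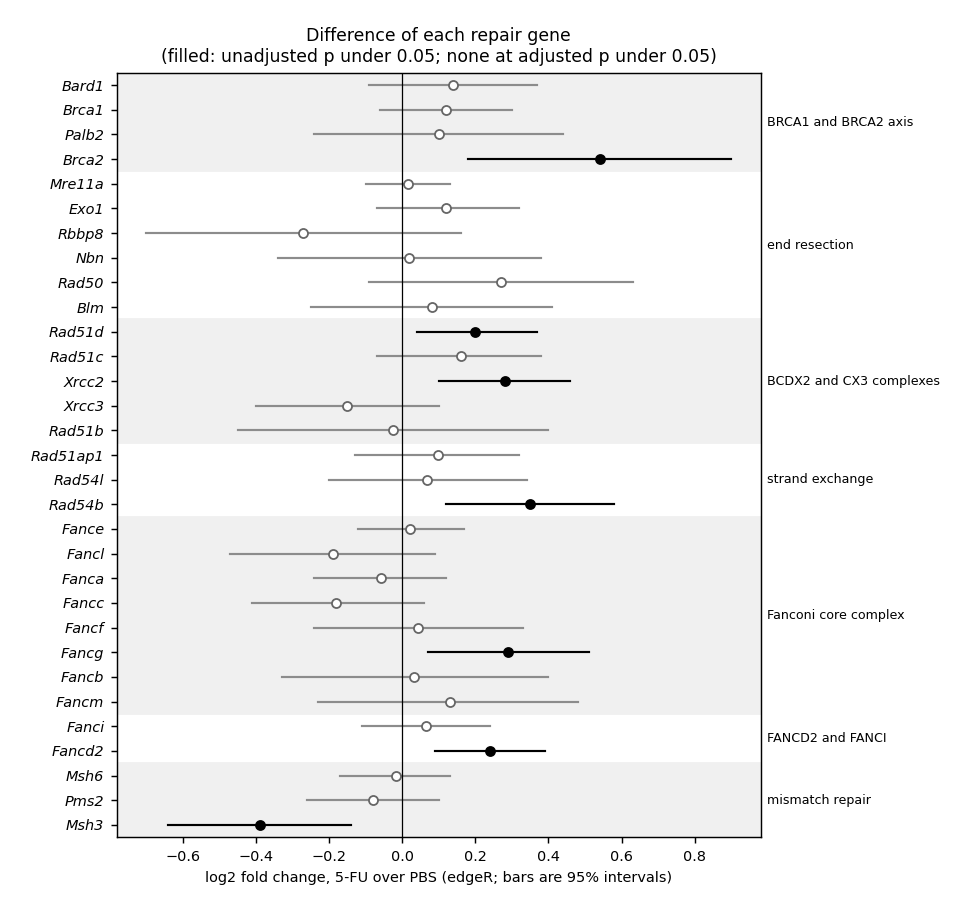
Log2 fold change (5-FU over PBS, edgeR) of each of the 31 repair genes with its 95% interval, grouped by role. Filled points are the 7 genes with an unadjusted p under 0.05, the lowest at -0.39 (Msh3) and the highest at 0.54 (Brca2), and 24 intervals span 0.

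In the BRCA1 and BRCA2 axis, Brca2 (ENSMUSG00000041147) had 4.23, 4.83 and 5.91 CPM in 5-FU libraries, against 3.92, 3.24 and 3.12 CPM in PBS libraries. All 3 5-FU libraries lay above all 3 PBS libraries, on counts of 64 to 127 per library. Its log2 fold change of 0.54 (SE 0.17; 95% interval 0.18 to 0.90) was the largest of the 31 genes and was not called (edgeR adjusted p = 0.0742; DESeq2 adjusted p = 0.136). Without 1 library in turn it lay between 0.39 and 0.65, with edgeR adjusted p between 0.0513 and 0.222. With offsets for transcript length and GC content, added after seeing the data, it was 0.42 (edgeR adjusted p = 0.109). Brca1, which with Bard1 forms a ubiquitin ligase that favours recombination over end joining, stood at 16.9 ± 1.1 CPM in 5-FU libraries and 15.5 ± 0.96 CPM in PBS libraries, which overlapped (log2 fold change 0.12, 95% interval -0.06 to 0.30). The log2 fold changes of Bard1 and Palb2 were 0.14 and 0.10, again with overlapping libraries.

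The 5 genes of the BCDX2 and CX3 complexes act on single strands during recombination. Of these genes 2 stood apart between the groups on the higher side and 1 on the lower. Over all genes tested, 29.3% stood apart in one direction or the other. Whether these 5 genes differ from that share was not tested. Xrcc2 (ENSMUSG00000028933) had 16.7, 15.1 and 15.7 CPM in 5-FU libraries, against 13.8, 13.1 and 12.2 CPM in PBS libraries. The groups did not overlap, and the log2 fold change was 0.28 (SE 0.084; 95% interval 0.10 to 0.46; edgeR adjusted p = 0.0659; DESeq2 adjusted p = 0.159). With offsets for transcript length and GC content its edgeR adjusted p was 0.0476, where 9.23% of all genes were called. Rad51d (ENSMUSG00000018841) had 27.7, 26.6 and 25.6 CPM in 5-FU libraries, against 24.7, 23.8 and 21 CPM in PBS libraries (log2 fold change 0.20, SE 0.075; 95% interval 0.04 to 0.37; edgeR adjusted p = 0.127; DESeq2 adjusted p = 0.245). XRCC2 and RAD51D are known to bind each other in one complex with RAD51B and RAD51C. Of the other genes of that complex, Rad51c had a log2 fold change of 0.16 (95% interval -0.07 to 0.38) and Rad51b one of -0.026 (95% interval -0.45 to 0.40), with overlapping libraries. Differences between these genes were not tested, and their intervals overlap. Xrcc3, whose protein pairs with RAD51C alone, had 5.52, 6.11 and 6.47 CPM in 5-FU libraries, all below the 6.64, 6.49 and 6.97 CPM in PBS libraries, by a narrow margin (log2 fold change -0.15, edgeR adjusted p = 0.454).

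Of the 3 genes that act in strand exchange, Rad54b (ENSMUSG00000078773), a motor that remodels DNA during strand exchange, had 9.18, 10.8 and 9.96 CPM in 5-FU libraries, against 7.64, 7.48 and 8.39 CPM in PBS libraries. The groups did not overlap, and the log2 fold change was 0.35 (SE 0.10; 95% interval 0.12 to 0.58; edgeR adjusted p = 0.0696, and 0.0421 with the same offsets; DESeq2 adjusted p = 0.163). Rad54b shares 2068 exonic bases with Fsbp on the same strand, its counts were not whole numbers, and its value is uncertain to that extent. Fsbp itself was given 1.15 ± 0.37 CPM in 5-FU libraries and 0.871 ± 0.25 CPM in PBS libraries. That level rests in part on the same shared bases, so it cannot settle how much of the Rad54b count belongs to Rad54b. The related motor gene Rad54l had 14.1, 10.2 and 14.3 CPM in 5-FU libraries, against 12.6, 12.3 and 12.1 CPM in PBS libraries. Its lowest and highest values were thus both in 5-FU libraries, and the log2 fold change was 0.068. Rad51ap1, whose protein stimulates the pairing of strands, had a log2 fold change of 0.097 with overlapping libraries.

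**Figure D4:**
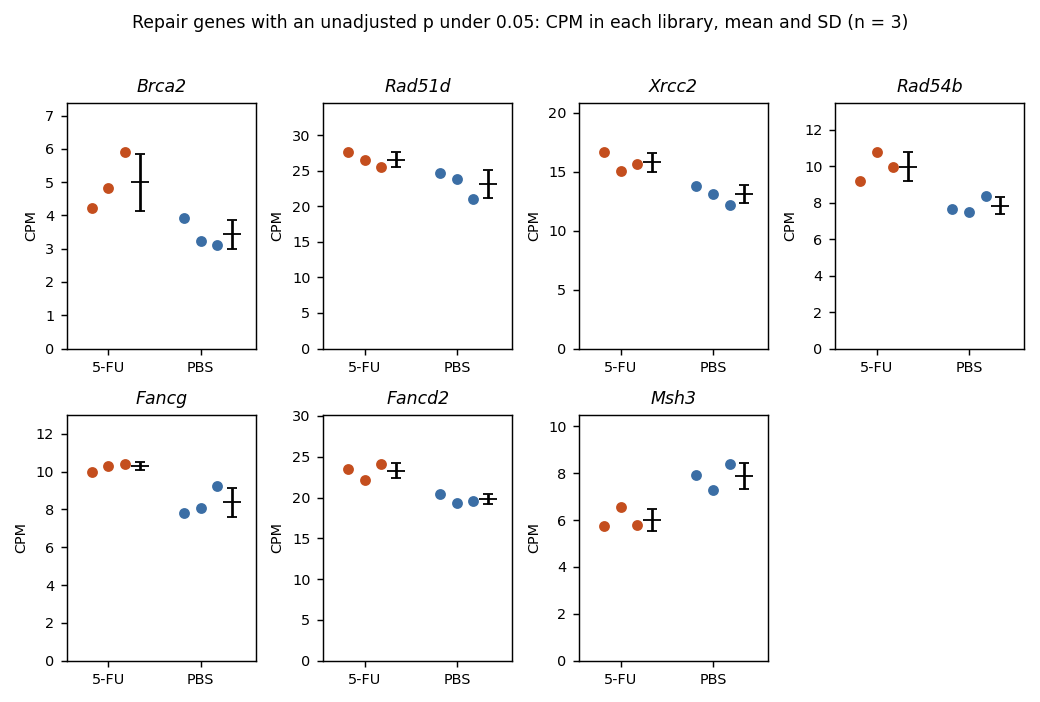
CPM of the 7 repair genes with an unadjusted p under 0.05 in each of the 3 5-FU and 3 PBS libraries (points), with the mean and SD of each group beside them; axes start at 0. Brca2, Rad51d, Xrcc2, Rad54b, Fancg and Fancd2 lie higher in 5-FU libraries and Msh3 lower, with no overlap between groups, and none was called after adjustment.

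In the Fanconi pathway, Fancd2 (ENSMUSG00000034023), which encodes the protein that the core complex marks with ubiquitin, had the lowest p of the 31 genes. It had 23.5, 22.2 and 24.1 CPM in 5-FU libraries, against 20.4, 19.3 and 19.6 CPM in PBS libraries, with no overlap. The log2 fold change was 0.24 (SE 0.067; 95% interval 0.09 to 0.39; edgeR adjusted p = 0.0559). By edgeR it passed the threshold with libraries scaled by total count alone (adjusted p = 0.0440; 7.48% of all genes called). It also passed among genes of at least 5 CPM (adjusted p = 0.0489; 8.44% called) and with the replicate number as a block (adjusted p = 0.0470; 9.88% called). It did not pass by DESeq2 (adjusted p = 0.145), limma-voom (adjusted p = 0.0583) or limma on log2(TPM + 1) (adjusted p = 0.15). Nor did it by edgeR with the length and GC offsets (adjusted p = 0.0575), or without any 1 library (adjusted p between 0.0653 and 0.186). Fanci, which encodes the other subunit of the same clamp, had 18.7, 17.2 and 19.5 CPM in 5-FU libraries, against 18.8, 17.7 and 16.5 CPM in PBS libraries, and these overlapped (log2 fold change 0.065, 95% interval -0.11 to 0.24). The difference between the changes of Fancd2 and Fanci was not tested, and their intervals overlap.

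Among the 8 genes of the core complex 5 log2 fold changes were above 0 and 3 below, with a median of 0.027. Fancg (ENSMUSG00000028453), a scaffold subunit, had 10, 10.3 and 10.4 CPM in 5-FU libraries, against 7.83, 8.07 and 9.26 CPM in PBS libraries (log2 fold change 0.29, SE 0.10; 95% interval 0.07 to 0.51; edgeR adjusted p = 0.105; DESeq2 adjusted p = 0.261). It was the only core gene whose groups did not overlap (12.5% of the 8, against 29.3% of all genes). Fancl, which encodes the catalytic subunit of the ligase, had a log2 fold change of -0.19 (95% interval -0.47 to 0.09), and Fancc one of -0.18 (95% interval -0.41 to 0.06). Fanca, Fancb, Fance and Fancf lay between -0.057 and 0.042, and Fancm, which encodes the DNA translocase that anchors the complex, stood at 0.13. Fanca shares 920 exonic bases with Zfp276 on the opposite strand and Fanci 921 with Polg, and, with no strand-marking step in the protocol, reads there cannot be assigned to one gene. In all, 18 of the 31 genes share exonic bases with another annotated gene, and 9 had counts that were not whole numbers.

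Mismatch repair was the only role group with all 3 log2 fold changes below 0, though that of Msh6 was 0.022 on log2(TPM + 1). Msh3 (ENSMUSG00000014850), whose protein recognises small insertion and deletion loops, had 5.73, 6.57 and 5.77 CPM in 5-FU libraries, against 7.93, 7.30 and 8.39 CPM in PBS libraries. Every 5-FU library lay below every PBS library, and the log2 fold change was -0.39 (SE 0.11; 95% interval -0.64 to -0.14; edgeR adjusted p = 0.0653, and 0.0491 with the length and GC offsets; DESeq2 adjusted p = 0.157). It was the only repair gene of the 31 with an unadjusted p under 0.05 on the lower side. Msh6, whose protein recognises single mispaired bases, had 42.3, 46.4 and 48.4 CPM in 5-FU libraries, against 49.7, 43.0 and 46.0 CPM in PBS libraries, and these overlapped (log2 fold change -0.018, 95% interval -0.17 to 0.13). Pms2, which encodes the endonuclease subunit of the next step, had a log2 fold change of -0.081 (95% interval -0.26 to 0.10).

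The main edgeR fit has no replicate block. In it the 6 genes of end resection gave no unadjusted p under 0.05, where 23.8% of all genes did. Their groups did not separate, where those of 29.3% of all genes did. Whether these 6 genes differ from those shares was not tested. Of the 6 genes, 3 were high in replicate 3 of both groups. Mre11a, the nuclease gene, had 33.7, 34 and 33.8 CPM in 5-FU replicates 1, 2 and 3, against 33, 33.5 and 33.8 CPM in PBS replicates 1, 2 and 3, with the smallest standard error of the 31 genes (log2 fold change 0.017, SE 0.053; -0.0064 on log2(TPM + 1)). Its partner gene Rad50 had 13.1, 15.7 and 18.4 CPM in 5-FU replicates 1, 2 and 3, against 11.5, 10.8 and 16.8 CPM in PBS replicates 1, 2 and 3. Nbn had 8.62, 10 and 11.7 CPM in 5-FU replicates 1, 2 and 3, against 7.74, 9.78 and 12.5 CPM in PBS replicates 1, 2 and 3. Rbbp8, which encodes the resection factor CtIP, had 8.93, 10.3 and 12.8 CPM in 5-FU replicates 1, 2 and 3, against 11.3, 9.82 and 17.6 CPM in PBS replicates 1, 2 and 3. In Rad50, Nbn and Rbbp8, replicate 3 was the highest library of both groups, above the mean of replicates 1 and 2 by a log2 ratio of 0.33 to 0.41 in 5-FU libraries and 0.51 to 0.73 in PBS libraries. Replicate 3 of both groups also stood apart from the other libraries on the second principal component of all genes tested (18.9% of the variance). The log2 fold change of Rbbp8, -0.27, became 0.015 without PBS replicate 3, while that of Rad50 was 0.27 (SE 0.16; 95% interval -0.09 to 0.63; edgeR adjusted p = 0.349; DESeq2 adjusted p = 0.380), and between 0.14 and 0.49 without 1 library in turn. With the replicate number as a block, the log2 fold changes of Rad50, Nbn and Rbbp8 were 0.28, 0.026 and -0.26. Their edgeR adjusted p were then 0.0827, 0.89 and 0.144, so none was called, where 9.88% of all genes were. Exo1, the exonuclease that serves both resection and mismatch repair, and the helicase gene Blm had log2 fold changes of 0.12 and 0.081.

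**Figure D5:**
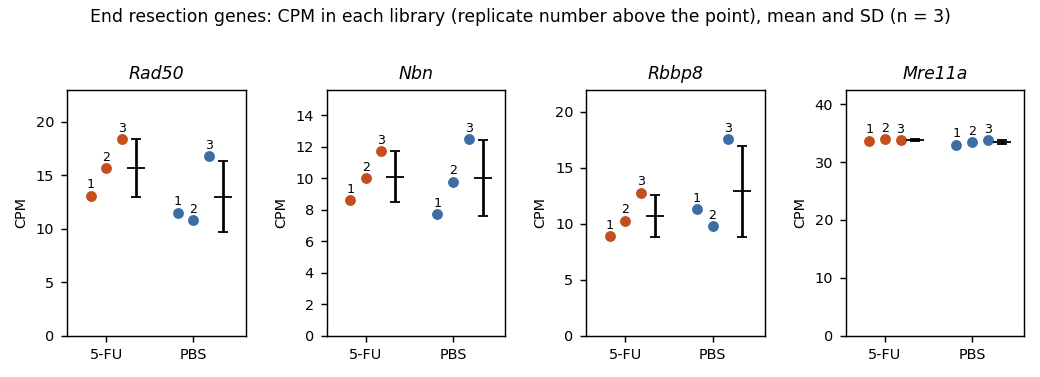
CPM of Rad50, Nbn, Rbbp8 and Mre11a in each 5-FU and PBS library, with the replicate number above each point and the mean and SD of each group beside; axes start at 0. Replicate 3 is the highest library of both groups for Rad50, Nbn and Rbbp8, while Mre11a lies between 33 and 34 CPM in every library.

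Other repair genes gave few calls. Over all genes tested edgeR called 7.14% (3.87% higher and 3.26% lower), and DESeq2 called 7.82% of those it adjusted. At an unadjusted p under 0.05 by edgeR stood 23.8% of all genes. Of 41 other genes of homologous recombination edgeR called none, with 9 (22.0%) at an unadjusted p under 0.05, near that share, and none by DESeq2. The lowest p was that of Top3a, a topoisomerase gene that works with Blm (log2 fold change -0.26, edgeR adjusted p = 0.0536). Of 20 other Fanconi genes edgeR called 1 higher and none lower: Slx4, which encodes a scaffold of nucleases that cut crosslinks, at 40.3 ± 2.6 CPM in 5-FU libraries and 32.9 ± 2.6 CPM in PBS libraries (log2 fold change 0.29, edgeR adjusted p = 0.0356). Its call ended without 5-FU replicate 1 or 3 or PBS replicate 2 or 3 (adjusted p up to 0.110). DESeq2 called Slx4 higher and also Usp1, which encodes the enzyme that removes ubiquitin from FANCD2, lower (log2 fold change -0.25 and adjusted p = 0.0767 by edgeR; DESeq2 adjusted p = 0.0473). Usp1 was named after its values were seen. Of 15 other mismatch repair genes edgeR called none, with 2 (13.3%) at an unadjusted p under 0.05. The lowest was that of the replication clamp gene Pcna (log2 fold change -0.17, edgeR adjusted p = 0.0742). DESeq2 called Pcna alone. Of 22 end joining genes edgeR called 1 higher and none lower: Polq, which encodes the polymerase of microhomology end joining, at 4.17 ± 0.39 CPM in 5-FU libraries and 2.81 ± 0.22 CPM in PBS libraries (log2 fold change 0.56, edgeR adjusted p = 0.0475). DESeq2 did not call Polq (adjusted p = 0.135), nor did edgeR with the length and GC offsets (adjusted p = 0.0624), and leaving out any 1 library ended the call. In the authors' deposited table of 186 genes Polq has a log2 ratio of 0.594 with an FDR of 0.193, and none of the 31 genes is listed there.

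The same libraries gave calls among p53 targets and few in the cell cycle. Of 25 p53 targets edgeR called 14 higher and none lower, against 3.87% higher and 3.26% lower of all genes tested. The median log2 fold change of the 25 was 0.35. Among the 14 were Psrc1 (0.87), Pidd1 (0.72), Trp53inp1 (0.69) and the translesion polymerase gene Polk (0.64). Without PBS replicate 2, 11 of these 14 calls were kept, and those of Pidd1 and Polk were among the lost. Of 35 S phase and E2F target genes edgeR and DESeq2 called none. Their median log2 fold change was -0.025, and 5 (14.3%) had an unadjusted p under 0.05, against 23.8% of all genes. Mcm6, a subunit of the replicative helicase, had the lowest p (log2 fold change -0.13, edgeR adjusted p = 0.0897). Among 24 G2 and mitosis genes 1 rose by edgeR, where 3.87% of all genes were called higher, and DESeq2 called 3. The 1 by edgeR was the proliferation marker Mki67 (log2 fold change 0.66, edgeR adjusted p = 0.00904), and that call ended without PBS replicate 2 (adjusted p = 0.0526). Whether the repair genes differ from these lists was not tested.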

How the data were processed

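The authors deposited an estimated count and a TPM value per gene and library, per the file headers. The submitters' processing notes list StringTie 1.3.1 with no role; the sources used here name no aligner, build or annotation. The authors' deposited table of 186 genes gives a log2 ratio of group means, a p-value and an FDR from a test not stated; its smallest absolute log2 ratio is 0.585.

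Estimated counts were rounded to whole numbers; the main test was edgeR 4.0.16 under R 4.3.3 (filterByExpr, at least 10 counts in 3 libraries and 15 in total; TMM; two-sided quasi-likelihood F test; Benjamini-Hochberg over all genes tested). The SE is the log2 fold change divided by the square root of F. CPM (counts scaled to library size) uses TMM-scaled totals. Full statistics are given for genes with an unadjusted p under 0.05 and the lowest p in each role group; from other lists, up to 4 called genes or the lowest p. The 31 genes, lists and rules were chosen with earlier results of these data known. Alternatives were DESeq2 1.42.0, limma-voom (limma 3.58.1), other scalings and filters, limma on log2(TPM + 1) and log2(TPM + 0.1) with genes of at least 1 TPM, a replicate block, and leaving out each library; offsets for transcript length and GC content (GENCODE M21) were added after seeing the data. The edgeR, DESeq2 and limma-voom tests were tested on simulated data. Some genes are not reported here.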

Additional observations from a re-analysis of the deposited data

How the results depend on the processing

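The median log2 fold change of the 31 genes (0.068), taken over those that a refit tested, was above 0 in all 16 refits. It ranged between 0.022 (without 5-FU replicate 3) and 0.126 (without 5-FU replicate 2). Without 1 library edgeR called 0 of the 31 genes each time, while the number of all genes called lay between 249 (without PBS replicate 2) and 656, against 866. At an adjusted p under 0.10 it called 5 of the 31 and 1605 of all genes. With libraries scaled by total count alone 1 of the 31 was called (Fancd2), where 7.48% of all genes were. Among genes with a mean of at least 5 CPM, Fancd2 was again the only repair gene called, where 8.44% of all genes were. Palb2, Brca2, Blm, Rad51b, Fancb and Fancm fell under that mean and were not tested in that refit. With offsets for transcript length and GC content 3 were called (Xrcc2, Rad54b and Msh3, adjusted p = 0.0476, 0.0421 and 0.0491). In that refit 9.23% of all genes were called, and whether the repair genes differ from that share was not tested. limma on log2(TPM + 1) called 528 genes and on log2(TPM + 0.1) 513, with 0 of the repair genes; Brca2 is under 1 TPM and was not tested there. With the replicate number as a block 1199 genes (9.88%) and 2 of the 31 were called (Xrcc2, adjusted p = 0.0458, and Fancd2, adjusted p = 0.0470). Deviations from the group mean correlated between same-numbered libraries at -0.002, 0.087 and 0.132, and between libraries of unlike number at -0.133 to 0.044. The values of replicates 2 and 3 were thus the highest, while 5-FU replicate 1 correlated more with PBS replicate 2 (0.044) than with PBS replicate 1. The main fit did not take the numbers as pairs, and whether they mark a shared batch was not tested.

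No gene with an unadjusted p under 0.05 changed sign. Signs changed in 14 of the other genes, in 32 of 488 values. With log2(TPM + 1) and log2(TPM + 0.1) these were Palb2 (-0.051 and -0.071), Mre11a (-0.0064 and -0.0066), Rad51b (0.0076 and 0.012), Fanca (0.050 and 0.055) and Msh6 (0.022 and 0.023), and with the length and GC offsets Fance (-0.00096). Ranges of log2 fold change without 1 library that crossed 0 were -0.14 to 0.20 for Nbn, -0.43 to 0.015 for Rbbp8, -0.019 to 0.19 for Blm, -0.14 to 0.11 for Rad51b, -0.0091 to 0.15 for Rad51ap1, -0.017 to 0.21 for Rad54l, -0.11 to 0.00049 for Fanca, -0.08 to 0.19 for Fancb, -0.017 to 0.046 for Fance, -0.021 to 0.15 for Fancf, -0.031 to 0.26 for Fancm and -0.067 to 0.037 for Msh6. The cause of these changes was not tested.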

Other observations

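Log2 fold changes of the 31 genes against the length of their longest annotated transcript (1691 to 10724 bases) gave Spearman's rho = 0.23, and 0.15 in the 30 genes without Brca2, which has the longest; over 12118 tested genes rho was 0.17. With GC content rho was -0.14 over the 31 genes and 0.10 over all genes. These are descriptions across genes of the same 6 libraries.

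Counts and TPM parted for some repair genes. Pms2 had 9.24 TPM in 5-FU replicate 3 and 10.5 TPM in PBS replicate 3, against 6.61 and 6.85 TPM in the other 5-FU libraries and 7.23 and 6.22 TPM in the other PBS libraries, while its CPM lay between 12.9 and 15.4 in all 6. Fancm had 3.10, 1.63 and 3.80 TPM in 5-FU libraries, against 2.15, 1.72 and 2.28 TPM in PBS libraries, and 5-FU replicate 2, with the lowest TPM of the 6, had the highest CPM (6.21).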
